A study of Homo sapiens with 2 samples.

Results

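PVT1 is a long non-coding RNA gene next to the proto-oncogene MYC on human chromosome 8, and the genes of the microRNA precursors MIR1204, MIR1205, MIR1206 and MIR1207 lie inside it. The members were all rows of the authors' deposited table of non-coding RNAs whose gene symbol was one of these 5, which gave 5 rows, 1 for each symbol, of 3576 rows in all. The 5 were selected on their log2 fold changes in the same table, which were already known, so those values are given here as a description, with no test.

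The cells were A375, an established human melanoma line labelled as wild type in genotype, irradiated with 8 Gy (labelled IR) or left at 0 Gy (labelled control), and each dose had 1 library. The study asked what lets melanoma withstand ionizing radiation. The table compares 1 library with the other and gives, for each RNA, a log2 fold change, the p-value and the q-value. No label says which library is the irradiated one, or that its libraries are these samples. The library on top of the ratio is called the numerator library here and the other one the denominator library, so a value above 0 is not a statement about dose. Without replicates, none of the differences below can be set against a replicate spread.

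PVT1 is often gained together with MYC in tumours, and its transcript has been linked to the stability of the MYC protein. In human cells p53 binds within PVT1 and raises both PVT1 and miR-1204, while in mouse a p53-induced Pvt1 isoform lowers Myc transcription. A microRNA precursor is a short hairpin cut out of a longer transcript and then trimmed to the mature microRNA, which pairs with messenger RNAs and represses them. A hairpin inside an exon or intron of a host can be cut from the host's primary transcript, though some such hairpins have promoters of their own. The libraries were prepared with a kit for mRNA. A precursor's value here is that of reads over its gene and is not a measure of free hairpins. Reads over a hairpin and reads of unspliced PVT1 RNA cannot be told apart here. At MIR1204 the same holds for spliced PVT1 RNA, since exons of 5 PVT1 transcripts overlap that hairpin.

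Each of the 5 members had a log2 fold change above 0, and the 4 precursors lay above PVT1 itself. The precursors each stood 2-fold or more higher in the numerator library, and PVT1 did not. Over all rows, 16.3% of RNAs were at least 2-fold higher and 60.9% had a value above 0, and among the 304 listed precursors 37.2% were at least 2-fold higher. Because the members were chosen with these values known, nothing is read from their count against those shares.

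The fold changes fall on ratios of whole read numbers for 98.9% of the RNAs, which gives the smallest pair of reads that each value allows. The pair is a lower limit, since the reads behind it can be the same numbers times 2, 3 or more. Intervals are exact 95% ones (Clopper-Pearson), computed from this smallest pair. They cover counting error only, since amplified reads are not independent molecules. A pair with 1 read in a library may stand for 0 reads, because the sources used here do not say how 0 was treated. Total reads per library are unknown. The value of equal read numbers, a log2 fold change of 0.14, puts the denominator library 1.10 times deeper.

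PVT1 (NR_003367.3), the host transcript, rested on a pair of 584 reads in the numerator library against 363 in the denominator library. Its fold was 1.77 (95% interval 1.55 to 2.02) and its log2 fold change 0.82. In the authors' deposited table PVT1 has p = 0.155 and q = 1. Of 798 RNAs classed as lncRNA, 116 had a larger log2 fold change than PVT1, and 10.5% of the class were at least 2-fold higher. Among the 457 of them with at least 50 reads in 1 library of the pair, 52 lay above PVT1. The median log2 fold change of the class was 0.11.

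MIR1204 (NR_031609.1), the hairpin of the p53-linked miR-1204, had the narrowest interval of the 4. Its pair was 67 reads in the numerator library against 10 in the denominator library, a log2 fold change of 2.88 and a fold of 7.36 (3.76 to 16.0). It has p = 1.17e-08 and q = 6.5e-06 in the authors' deposited table, and 1 of the other precursors, MIR3189, has a smaller p. The pair is also among the larger ones for a hairpin: 8 of the 298 precursors with a recovered pair had a larger number in theirs. This is the only member precursor whose pair holds more than 1 read in both libraries.

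MIR1206 (NR_031611.1) rested on a pair of 11 reads in the numerator library against 1 in the denominator library. Its fold was 12.1 (1.76 to 520.1), a log2 fold change of 3.59, and the row has p = 0.000141 and q = 0.0391 in the authors' deposited table. MIR1205 (NR_031610.1) rested on 12 reads against 1, a log2 fold change of 3.72 and a fold of 13.2 (1.95 to 563.4), with p = 0.00594 and q = 0.77 in the authors' deposited table. Both intervals are very wide, since each smallest pair has 1 read in the denominator library. That read may stand for 0, or for more reads if the true numbers are a multiple of the pair. If the single read stands for 0, the floor of 3 reads can be put in its place. The fold is then 4.39 for MIR1205 and 4.03 for MIR1206. These are point values that take the numerator reads as exact, so they are not lower limits.

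MIR1207 (NR_031612.1) had the smallest pair, 3 reads in the numerator library against 1 in the denominator library. Its fold was 3.30, with an interval from 0.265 to 173.0. In the authors' deposited table it has p = 0.111 and q = 1. MIR1208, the next hairpin on the same strand, starts 48.9 kb past the end of PVT1 in GENCODE 29 and has no row in the table analysed here.

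By the deposited values the order was MIR1205, MIR1206, MIR1204, MIR1207 and then PVT1. That order changes with the reads put in for a denominator of 1: with 1 read added to both numbers of each pair the folds were 7.14 for MIR1205, 6.79 for MIR1204 and 6.59 for MIR1206, and with the floor of 3 reads both MIR1205 and MIR1206 fall below the 7.36 of MIR1204. The precursors could not be ordered among themselves, because in all 6 pairs of them the 95% interval of the ratio of their folds held 1. Of MIR1204 over MIR1205, for example, the ratio was 0.558 (0.0119 to 4.66). As a description, the fold of MIR1204 was 4.16 times that of PVT1 (2.09 to 9.19) and that of MIR1205 was 7.46 times (1.09 to 319.7). The fold of MIR1206 was 6.84 times that of PVT1 (0.985 to 295.1) and that of MIR1207 was 1.86 times (0.149 to 98.2). With 1 library on each side these intervals hold counting error only. Those of MIR1204 and MIR1205 lie above 1, but without a replicate spread no precursor is separated from PVT1. These ratios within the locus do not depend on how the libraries were scaled.

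The hairpins are spread over most of the gene. In GENCODE 29, which is annotated on GRCh38, PVT1 spans 307 kb with 25 transcripts, starts 53.1 kb past the end of MYC, and lies on the strand of all 4 hairpins. No human build is named for the table, so distances from the annotated start are given in place of coordinates. MIR1204 starts 1.43 kb from the start of PVT1. MIR1205 lies 166 kb into the gene, MIR1206 214 kb and MIR1207 255 kb.

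MIR1204 is also the one hairpin that touches exons. An exon of 1 PVT1 transcript contains it in full, and exons of 5 transcripts overlap it, of 9 transcripts that span it. MIR1205, MIR1206 and MIR1207 are intronic in every transcript that spans them, which are 3, 4 and 5 transcripts in that order. The first GENCODE transcript paired with the RefSeq identifier of PVT1 starts 96.1 kb past the start of the gene, beyond MIR1204. Other pairings were not looked for, and the RefSeq record's own exons were not used. Whether the deposited PVT1 row spans MIR1204 was therefore not settled here. The 8 exons of that GENCODE transcript hold 1699 bases, while the hairpin genes are 59 to 87 bases long.

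**Figure D1:**
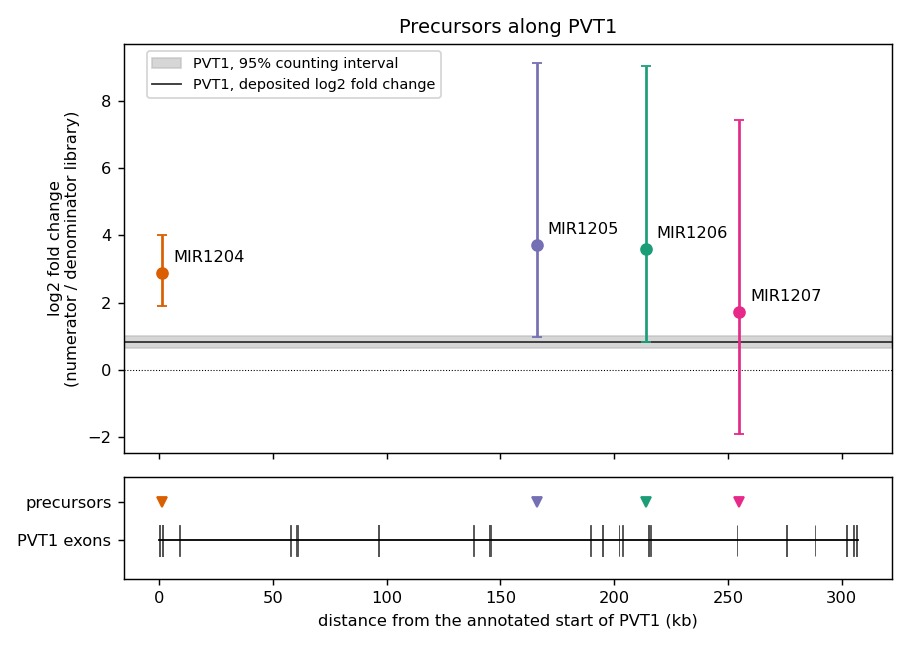
Upper panel: deposited log2 fold change (numerator over denominator library) of the 4 precursors by distance from the annotated start of PVT1 in kb, with exact 95% counting intervals as bars; the line and grey band are the value of PVT1 and its interval. Lower panel: PVT1 exons of all GENCODE 29 transcripts, with triangles at the precursors. The point of each precursor lies above the band, and the bar of MIR1204 (1.43 kb) is the shortest.

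Within the 304 precursors of the table, whose median log2 fold change was 0.40 and whose upper quartile was 1.72, the 4 hairpins of PVT1 lay in the upper part. Larger values than that of MIR1205 were listed for 7 precursors, than that of MIR1206 for 9 and than that of MIR1204 for 29. MIR1207 lay at the upper quartile, where 16 others share its value. Many high values have small pairs: of the 113 precursors at least 2-fold higher, 68 had a pair with 1 read in the denominator library, as had 3 of the 4 here. With at least 10 reads in 1 library of the pair, 32.1% of 112 precursors were at least 2-fold higher.

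**Figure D2:**
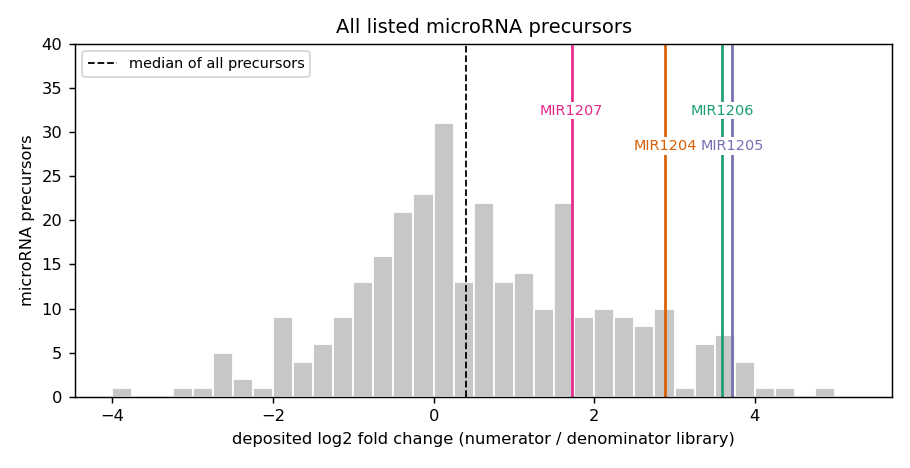
Histogram of the deposited log2 fold change of the 304 listed microRNA precursors (vertical axis: number of precursors), with the 4 precursors inside PVT1 as coloured lines and the median of all precursors, 0.40, as a dashed line. MIR1204, MIR1205 and MIR1206 lie in the right tail, between 2.88 and 3.72, and MIR1207 lies at 1.72.

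High values with as many reads were not confined to MIR1204. MIR3189 stood higher, at a log2 fold change of 3.90 with 68 as the larger number of its pair, and MIR630 stood at 2.39 with 67. The nearest precursors to MIR1204 in log2 fold change had smaller pairs, which are lower limits of their reads. Next above it were MIR1281 and MIR3164, both at 7.69-fold with a pair of 7 to 1. Next below were MIR296, at 7.14-fold with a pair of 13 to 2, and MIR30C1, at 6.59-fold with a pair of 6 to 1. Among 456 other RNAs classed as lncRNA with at least 50 reads in 1 library of the pair, the 3 nearest to PVT1 were CYTOR at 1.76-fold, and BIN3-IT1 and LINC00622, both at 1.78-fold. This likeness is over 1 comparison of 2 libraries and says nothing of their levels.

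Hosts and hairpins can be set side by side across the table, since 42 precursors, the 4 of PVT1 included, lie on the strand of a listed host in GENCODE 29. In PVT1 all 4 lay above the host, 3 of them by 2-fold or more, with a median difference of 2.42 on the log2 scale. Of the 38 precursors of 29 other hosts, 19 lay above the host and 19 below, 23.7% lay above it by 2-fold or more. Their median difference was -0.01, with a range from -1.86 to 4.21. No test was made of this difference, for the reason given above. In 4 of these 38 the difference exceeded the median of the PVT1 hairpins, and all 4 had a smallest pair with 1 read in the denominator library.

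Small pairs touch this comparison as well. Of the 38 precursors of other hosts, 11 had a smallest pair with 1 read in the denominator library, as had 3 of the 4 PVT1 hairpins. Of these 11, 9 lay above their host, with a median difference of 0.91. The difference exceeded the median of the PVT1 hairpins in 4 of the 11. With at least 10 reads in 1 library of the pair, 3 PVT1 hairpins had a median difference of 2.77, and the 16 hairpins of other hosts had a median of -0.01, with 8 above and 8 below the host. MIR1207 drops out under that minimum.

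Besides PVT1, 6 hosts had at least 2 listed precursors, 15 in all, of which 5 lay above the host. At least 2-fold higher were 6 of the 15, a share near the 37.2% of all precursors. MIR222HG, host of the growth-linked miR-221 and miR-222, stood close to PVT1 at a log2 fold change of 0.81, with its precursors at -1.06 and 1.72. MIR100HG stood at 1.78 and its 3 precursors between -0.07 and 1.31, all below it. FTX, a long non-coding RNA of the X-inactivation centre, stood at 0.91 and its 3 precursors between 0.36 and 1.14. The 1 host besides PVT1 with each listed precursor above it was AL158152.2, at -0.47, whose 3 let-7 precursors stood between -0.15 and 1.51.

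**Figure D3:**
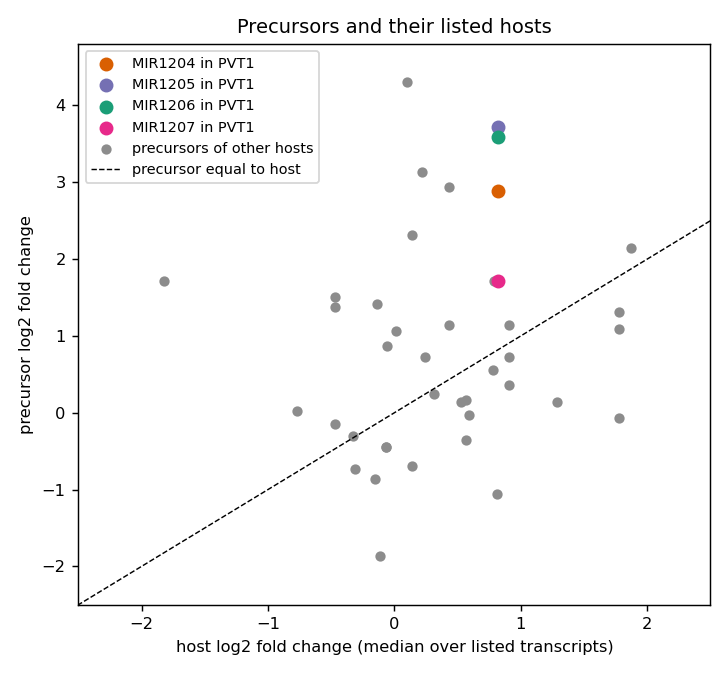
Log2 fold change of each precursor (vertical axis) against that of its listed host (horizontal axis, median over the host's listed transcripts) for 42 precursors; coloured points are the 4 inside PVT1, grey points the 38 of other hosts, and the dashed line marks equal values. The 4 coloured points stand above the line at a host value of 0.82, whereas 19 of the grey points lie above it and 19 below.

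The deposited p-values of the hairpins did not follow their read ratios alone. RNAs with the same smallest pair can differ in their reads, which may be multiples of it. Whether this bears on p was not tested. MIR1206 shares the pair of 11 to 1 with 6 other RNAs, whose p-values in the authors' deposited table run from 0.0208 for MIR548V to 0.302. The p of MIR1206 given above is the smallest among them. MIR1205 shares its ratio with 2 others, among them the precursor MIR1180 with p = 0.00857 in the authors' deposited table, and again has the smallest p. MIR1207 has the smallest p of 25 RNAs at 3 to 1, which run from 0.111 to 0.495 in the authors' deposited table. PVT1, whose smallest pair is larger than that of any of its hairpins, has a larger p than any of them. The sources used here do not say how the authors obtained p, so 2 of 5 members having q under 0.05, against 0.839% of the table and 2.30% of the precursors, says little about how firmly each differs.

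**Figure D4:**
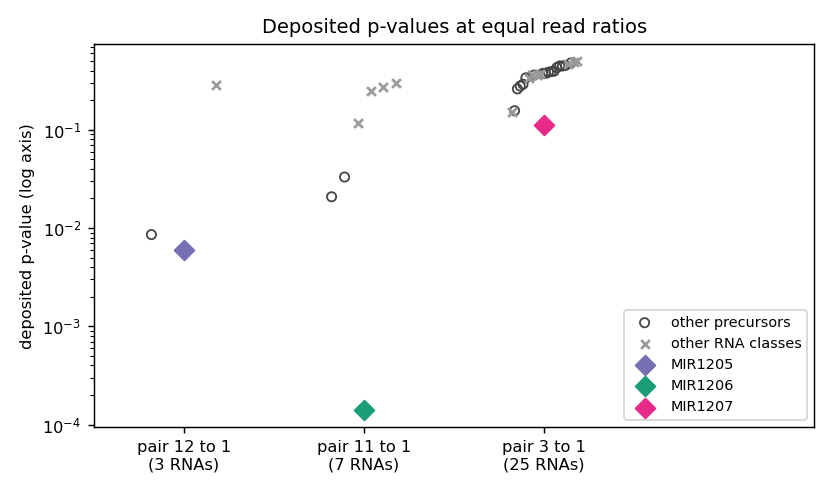
Deposited p-value (log axis) of every RNA whose smallest read pair equals that of MIR1205 (12 to 1, 3 RNAs), MIR1206 (11 to 1, 7 RNAs) or MIR1207 (3 to 1, 25 RNAs); diamonds are the PVT1 hairpins, circles other precursors and crosses other RNA classes, spread sideways for legibility. In each column the diamond is lowest.

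Few RNAs around the locus were listed. Of 23 symbols on a list of genes near MYC, 1 was present by the table's own symbols and PCAT1 also by its Ensembl identifier. MIR5194, a hairpin 1910 kb past the end of PVT1 on the opposite strand, stood at 0.137-fold (0.00309 to 1.02) from 1 read in the numerator library against 8. GENCODE 29 placed 2 other rows within 2000 kb of PVT1, that of PCAT1 and 1 that is not on the list. ENSG00000254010.1, named PCAT1 there, lies 1240 kb before PVT1 and stood at 0.774-fold (0.472 to 1.25), from 31 reads in the numerator library against 44. ENSG00000253220.1 lies 1290 kb before it and stood at 1.30-fold (0.537 to 3.20). All 3 intervals hold 1. MYC itself is protein-coding and has no row in this table of non-coding RNAs.

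Of 17 long non-coding RNAs linked to MYC, 6 had a row, 1 above and 5 below 0, with a median log2 fold change of -0.05, beside 0.16 over all RNAs and 0.82 for PVT1, and none was 2-fold different, while of all RNAs 16.3% were higher by 2-fold or more and 6.35% lower by as much. SNHG12, a snoRNA host, had a pair of 1379 reads in the numerator library against 1515 in the denominator library. Its interval of 0.929 to 1.08 holds a fold of 1. The better covered transcript of DANCR, a snoRNA host that lies in a MYC-linked programme, stood at 0.938-fold (0.862 to 1.02) and the other at 0.696-fold (0.370 to 1.28). The better covered transcript of SNHG17, also a snoRNA host, stood at 0.962-fold (0.809 to 1.14) and the other at 1.02-fold (0.647 to 1.61). A symbol is placed above or below 0 by the median of its transcripts. The transcripts of MINCR, a MYC-linked long non-coding RNA, stood at 0.744-fold (0.555 to 0.993) and 1.08-fold (0.775 to 1.51). MIR17HG, the 1 of the 6 above 0, stood at 1.09-fold (0.91 to 1.31), and GHET1 at 0.946-fold (0.566 to 1.57). This list was also chosen with earlier results of these data known, so its counts are a description only.

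Of 15 p53-induced long non-coding RNAs, a list that leaves out PVT1, 8 had a row, each with a value above 0, with a median of 1.02 and 4 at 2-fold or more, beside 60.9% of all RNAs above 0 and, at 2-fold or more, 16.3% of all RNAs and 10.5% of the lncRNA class. PVT1, at 0.82, lay below 5 of the 8. The lowest of them, LINC00346 at 0.05, lay below the median of 0.16 over all RNAs. The list was chosen with earlier results of these data known, so nothing is read from its counts. MIR34AHG, the host of miR-34a, stood at 3.51-fold (3.24 to 3.81), and PURPL, listed as LINC01021, at 4.11-fold (3.40 to 4.98). TP53TG1 stood at 1.29-fold (1.03 to 1.63). The highest log2 fold change of the 8 was 2.04, and that of MIR1204 was 2.88. MIR1204 is of another class, the precursors, of which 37.2% were at 2-fold or more, so the 2 values are not ranked.

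Non-coding markers of the labelled cell type and of others were looked up. Fold changes between 2 libraries cannot show which cell type is present, so these values do not check the label. Of 7 melanocytic symbols 3 were listed, SAMMSON, CASC15 and BANCR, with log2 fold changes between -0.30 and 0.19. Of the fibroblast and endothelial symbols 2 of 6 were listed, between 0.04 and 1.41, the higher being HOXC-AS1 at 2.65-fold (1.47 to 4.97). Of the epithelial symbols 2 of 5 were listed, between -0.10 and 0.12, and none of 5 blood symbols was. The part of other cell types in the values of PVT1 was not tested.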

How the data were processed

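RNA sequencing libraries were prepared from TransZol extracts of total RNA of A375 cells with a kit for mRNA, per the labels' protocols, 1 for each dose. The submitters' processing notes name only the mouse build mm10, although the identifiers are human. The aligner, the counting, the strand setting and the test behind the p-values are not given in the sources, so overlapping genes may share reads. Per the file headers, the values the authors deposited are a log2 fold change, its p-value and its q-value. A further 2 columns of per-sample values match neither sample's labels and were not used.

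Taking the most frequent log2 fold change (66 RNAs) as equal reads, each value was matched to its smallest ratio of whole numbers, none above 3000, within a relative tolerance of 1.5e-09. This step was tested on simulated data. Intervals of a ratio of 2 folds are exact conditional odds-ratio intervals. A host is a listed gene that contains the precursor on its strand in GENCODE 29, with the median over its listed transcripts. All members were named, with the listed MYC-region genes, the 3 members of each other list with the largest pair, and the RNAs nearest to PVT1 and MIR1204. Other RNAs named beside them were chosen after their values were seen. The members and lists were chosen with earlier results of these data known. Alternatives were other scalings, read minimums, a 4-fold threshold and 1 added read. Python 3.11.15 was used with scipy 1.17.1, numpy 2.4.6, pandas 2.3.3 and matplotlib 3.10.9.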

Additional observations from a re-analysis of the deposited data

How the results depend on the processing

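Of 33 alternative values for 11 results, 32 stayed within the counting interval, or within 1.5 times for a count, and none changed sign. The exception was the count of members at least 2-fold higher, 4 of 5, which was 1 when at least 50 reads in 1 library of the pair were required, since that minimum leaves MIR1204 and PVT1 alone. It was 3 with a 4-fold threshold or a minimum of 10 reads, and 4 under both other scalings. Staying within an interval is a weak check for MIR1205, MIR1206 and MIR1207, whose intervals are very wide. With the floor of 3 reads MIR1205 went to a log2 fold change of 2.14 from 3.72 and still counted as within. The other scalings moved each log2 fold change by only 0.16 or 0.14. With the median of all RNAs taken as no change, PVT1 stood at 0.66 and the precursors had a median of 3.07, against 3.24 as deposited. Adding 1 read to each number of the pair gave the precursors a median of 2.74 and their difference from PVT1 a median of 1.92, against 2.42. The floor of 3 reads, and the match of MYC-region symbols through GENCODE 29, which moved that list's median to -1.62 from -2.86, were added after the data were seen. PVT1 has 1 listed transcript, so other transcripts could not be tried. No paired analysis was possible because each dose has only 1 library. The intervals of MIR1205, MIR1206 and MIR1207 are the widest of the members, since their smallest pairs hold 1 read in the denominator library.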
